A study of Homo sapiens with 6 samples.

Results

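Open chromatin of chromosome 4 was described in KMS-11, a human multiple myeloma line, with the chromosome split at 50 Mb (hg38). All ATAC-seq peaks listed on chromosome 4 were taken and overlapping peaks were merged within each library into regions. The split falls at the centromere, so the short arm lies below it and the long arm above it, with 50 Mb below and 140.2 Mb from the split to the last listed base. Chromosome 4 held 17672, 17195 and 16591 regions in the 3 ATF4 knockdown libraries, of 170210, 171685 and 163937 regions on chromosomes 1 to 22 and X. It held 13951, 15394 and 12259 regions in the 3 control libraries, of 150004, 161433 and 135070. Below 50 Mb lay 2257, 2370 and 2193 regions in the knockdown libraries and 1999, 2236 and 1744 in the control libraries. Above 50 Mb lay 15415, 14825 and 14398 regions in the knockdown libraries and 11952, 13158 and 10515 in the control libraries. The split and the measures were chosen on values of these same libraries, so differences between the sides of the split, and differences between the groups in these same measures, are given as descriptions, with no test.

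The knockdown cells carried the lentiviral vector LentiV2 with the guide label ATF4g3, and the control cells carried LentiV2. All 6 libraries were labelled as KMS-11, plasma cell myeloma, with the genotype WT, and each group had 3 biological replicates by label. A single guide label was used, and its mode of action is not given. The series asks how accessible chromatin changes when ATF4, which switches on amino acid supply and redox genes in stressed cells, is lowered. The peak lists hold no expression value, so the knockdown itself was not checked here. At least 1 strong region (defined below) lay at the ends of 8 of 8 plasma cell genes in all 6 libraries, among them IRF4, PRDM1, XBP1 and SDC1. The same held for 2 of 5 T and NK cell genes (CD3D and CD3E), 1 of 5 myeloid genes (FCGR3A) and 4 of 5 epithelial and stromal genes. Over all chromosomes it held for 12333 of 19974 protein-coding genes.

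In ATAC-seq the Tn5 transposase inserts sequencing adapters into DNA that is free of tightly packed nucleosomes, so that fragments pile up at active promoters and enhancers. The peak caller MACS2 compares the pileup at each summit with a local background. This is the larger of a library-wide rate and the rates measured in windows around the summit. Those windows can take in the peak's own tags, so pileup and local background are not independent measures. The caller reports the fold of pileup over that background, after adding a small constant to each. The tip of the short arm of chromosome 4 holds NSD2, a histone methyltransferase gene, and FGFR3, a receptor tyrosine kinase gene. In KMS-11 a translocation joins this locus to the immunoglobulin heavy chain genes.

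A region was called weak where the caller's −log10 q, the adjusted evidence for the peak, was under 2, and strong where it was 10 or more. The library-wide rate, the commonest local background of a library and a measure of its depth, was 2.51, 2.15 and 2.51 overlapping tags in the knockdown libraries and 3.19, 2.79 and 3.52 in the control libraries. The knockdown libraries were thus shallower throughout, and how far depth entered each difference between the groups below was not tested.

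Promoters from both sides of the split are shown first, as the 250 bases before and 50 bases after the annotated start of each gene (RefSeq, GRCh38.p14), read 5′ to 3′ on the strand of the gene. Each was overlapped by a strong region in all 6 libraries. Capitals mark matches on either strand to 4 motifs. They are the GC box, searched with the letters GGGCGG, the CCAAT box, searched with the letters of its name, the ETS site, searched with the letters CCGGAAG, and the NRF1 site, a GC-rich motif that reads almost alike on both strands. No match was found in these windows to a cAMP response element, searched as TGACGTCA, to a C/EBP-ATF element, searched with the letters TGATGNAAT, or to an AP-1 site, searched with the letters TGANTCA. A pair of overlapping GC boxes in ELMOD2 forms 1 run of capitals. The 4 of MXD4, WFS1, WDR19 and ELMOD2 lie in regions that, among those found in all 6 libraries, are in the top 3 of their side by lowest −log10 q, and CD38 and MAD2L1 were taken from the gene lists with their values known. MXD4 encodes a partner of MAX that counters MYC. WFS1 encodes wolframin, a membrane protein of the endoplasmic reticulum, WDR19 a subunit of the transport machinery of cilia, and CD38 a surface ectoenzyme of plasma cells that myeloma antibodies target. ELMOD2 encodes a GTPase-activating protein for ARL GTPases and MAD2L1 a protein of the mitotic spindle checkpoint. The windows of MXD4 (chr4:2262060-2262359, minus strand), WFS1 (chr4:6269600-6269899, plus strand), WDR19 (chr4:39182279-39182578, plus strand) and CD38 (chr4:15778078-15778377, plus strand) lay below the split. Those of ELMOD2 (chr4:140523918-140524217, plus strand) and MAD2L1 (chr4:120066799-120067098, minus strand) lay above it.

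MXD4: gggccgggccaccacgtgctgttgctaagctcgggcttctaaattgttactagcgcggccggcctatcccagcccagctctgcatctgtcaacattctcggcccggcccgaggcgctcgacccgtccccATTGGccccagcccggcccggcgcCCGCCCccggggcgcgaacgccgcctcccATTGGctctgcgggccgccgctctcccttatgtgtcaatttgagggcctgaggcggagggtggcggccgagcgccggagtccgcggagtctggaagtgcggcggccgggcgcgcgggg
WFS1: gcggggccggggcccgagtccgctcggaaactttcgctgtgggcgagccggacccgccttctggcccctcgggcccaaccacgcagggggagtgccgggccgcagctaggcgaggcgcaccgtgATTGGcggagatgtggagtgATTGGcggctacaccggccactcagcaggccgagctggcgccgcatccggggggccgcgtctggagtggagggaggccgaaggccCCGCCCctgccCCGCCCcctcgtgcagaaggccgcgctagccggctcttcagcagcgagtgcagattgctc
WDR19: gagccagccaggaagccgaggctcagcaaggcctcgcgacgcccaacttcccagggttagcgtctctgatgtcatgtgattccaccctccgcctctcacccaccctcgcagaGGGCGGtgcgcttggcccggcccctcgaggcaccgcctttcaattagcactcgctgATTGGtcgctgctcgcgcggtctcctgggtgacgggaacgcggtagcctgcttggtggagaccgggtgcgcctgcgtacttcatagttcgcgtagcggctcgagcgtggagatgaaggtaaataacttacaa
CD38: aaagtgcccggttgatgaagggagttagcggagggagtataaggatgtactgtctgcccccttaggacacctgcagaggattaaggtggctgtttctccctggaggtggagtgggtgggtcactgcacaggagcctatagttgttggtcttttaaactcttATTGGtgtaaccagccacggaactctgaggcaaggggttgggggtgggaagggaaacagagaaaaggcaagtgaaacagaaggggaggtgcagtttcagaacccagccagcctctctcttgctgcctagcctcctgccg
ELMOD2: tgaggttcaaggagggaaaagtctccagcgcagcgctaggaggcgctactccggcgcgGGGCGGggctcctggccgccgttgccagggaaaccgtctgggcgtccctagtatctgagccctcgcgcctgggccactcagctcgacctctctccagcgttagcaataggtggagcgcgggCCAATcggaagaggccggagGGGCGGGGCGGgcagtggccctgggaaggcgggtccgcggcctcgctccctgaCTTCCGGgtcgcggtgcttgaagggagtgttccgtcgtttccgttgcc
MAD2L1: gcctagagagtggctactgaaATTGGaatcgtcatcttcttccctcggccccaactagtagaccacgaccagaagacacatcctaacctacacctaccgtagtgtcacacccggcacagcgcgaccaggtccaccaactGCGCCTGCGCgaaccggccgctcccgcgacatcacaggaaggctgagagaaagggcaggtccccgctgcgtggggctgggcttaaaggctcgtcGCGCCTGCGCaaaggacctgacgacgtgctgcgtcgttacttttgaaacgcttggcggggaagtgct

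The WFS1 and ELMOD2 windows, a pair picked after their values were seen, were alike in base composition, with 73.3% and 68.7% G+C and 33 and 31 CpG pairs. Their pileups, given as multiples of the library-wide rate, differed. At WFS1 the pileup was 110, 118 and 135 times the rate in the knockdown libraries and 163, 197 and 155 times in the control libraries. At ELMOD2 it was 205, 224 and 237 times in the knockdown libraries and 291, 347 and 255 times in the control libraries. The fold over local background was closer, 20.7 ± 1.15 at WFS1 and 23.7 ± 0.39 at ELMOD2 in the knockdown libraries (SD, n = 3), against 23.7 ± 1.39 and 25.3 ± 1.56 in the control libraries. The local background was 5.44 ± 0.34 and 8.95 ± 0.63 times the library-wide rate in the knockdown libraries and 6.92 ± 0.49 and 11.4 ± 1.08 times in the control libraries. MAD2L1 had a local background of 12.6 ± 1.05 times in the knockdown libraries and 17.2 ± 0.91 times in the control libraries. CD38, a promoter with 4 CpG pairs, had a pileup of 26.3, 33.4 and 38.7 times the rate in the knockdown libraries and 48.9, 56.9 and 47.4 times in the control libraries, the lowest of these 6 promoters in every library. MXD4, below the split, did not follow the order of WFS1 and ELMOD2. Its local background was 10.52, 12.75 and 12.63 times the rate in the knockdown libraries and 14.55, 15.22 and 13.83 times in the control libraries, higher than that of ELMOD2 in every library.

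Weak regions were sparse below 50 Mb and dense above it in every library. Below the split there were 15.5, 16.8 and 13.3 weak regions per Mb in the knockdown libraries and 7.16, 10.4 and 5.52 in the control libraries. Above the split there were 51.0, 49.1 and 43.0 weak regions per Mb in the knockdown libraries and 27.1, 37.5 and 21.5 in the control libraries. The density below was 0.303, 0.342 and 0.310 of that above in the knockdown libraries and 0.264, 0.278 and 0.257 in the control libraries. In bins of 5 Mb, the highest bin below the split lay in the first 10 Mb of the chromosome in every library, and in knockdown replicate 1 it reached 34.8, above the lowest full bin of the long arm. Between 10 and 50 Mb the 8 bins ran from 8.60 to 15.2 weak regions per Mb in knockdown replicate 1 and from 4.20 to 7.60 in control replicate 1. The 28 full bins above 50 Mb ran from 33.2 to 65.6 in knockdown replicate 1 and from 15.8 to 40.8 in control replicate 1. Averaged over libraries, the 2 densest bins ran from 135 to 140 Mb, with 64.6 in the knockdown libraries and 44.1 in the control libraries, and from 125 to 130 Mb, with 56.7 and 37.0. The 2 sparsest full bins ran from 45 to 50 Mb, with 8.80 and 5.13, and from 30 to 35 Mb, with 8.87 and 5.40. The densest below the split, from 5 to 10 Mb, had 29.4 and 11.5, and the sparsest full bin above it, from 160 to 165 Mb, had 33.6 and 21.1.

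**Figure D1:**
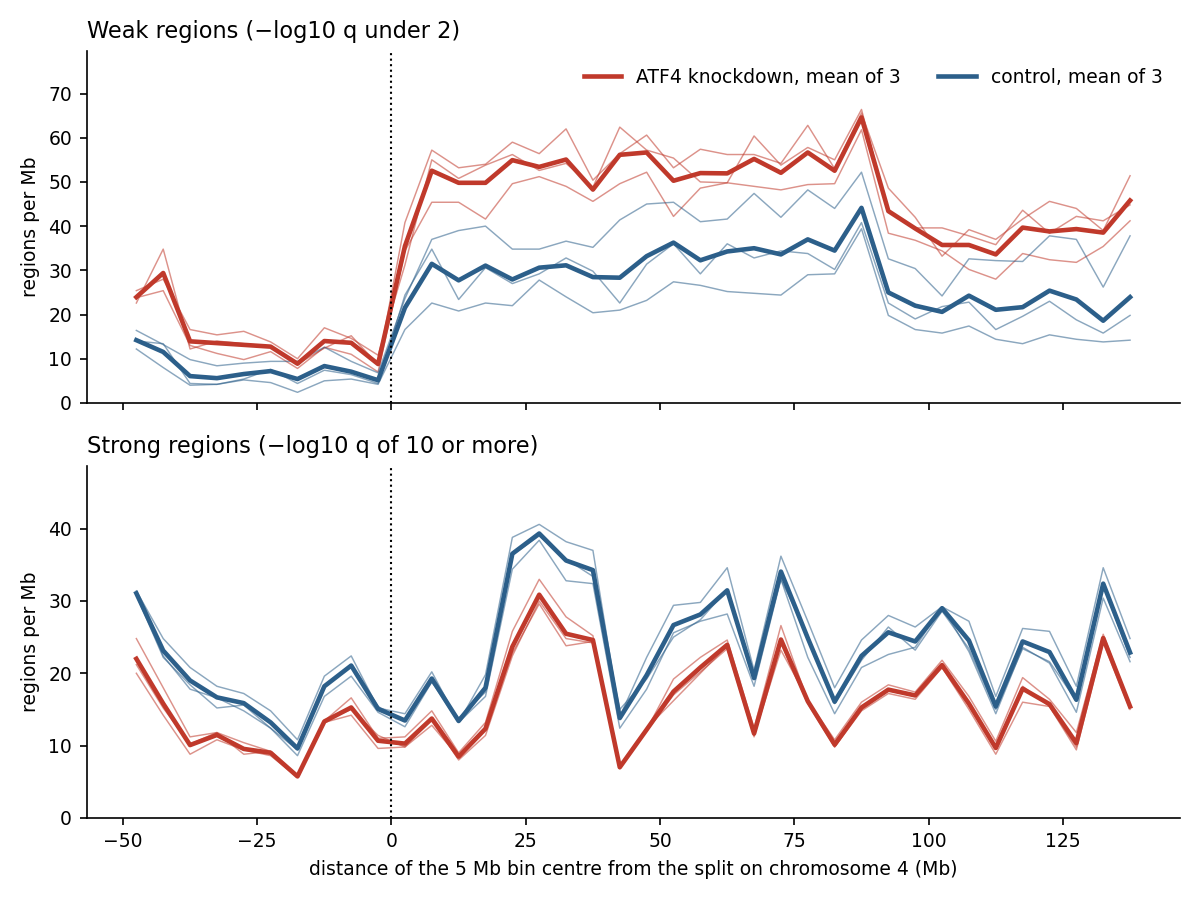
Weak (top) and strong (bottom) regions per Mb in 5 Mb bins of chromosome 4, plotted by the distance in Mb of the bin's centre from the split at 50 Mb (dotted line), with thin lines for the 6 libraries and thick lines for the group means. The short last bin is left out. Weak regions step up at the split in both groups, to 35.5 and then 52.5 per Mb in the knockdown mean and to 21.5 and then 31.5 in the control mean. The first bin above the split takes in DNA without peaks up to 51818832, which lowers its density in both panels. Strong regions show local peaks and, in these bins, no step at the split.

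The step was placed by the single change point that left the smallest sum of squares. In 5 Mb bins it fell at 50 Mb in knockdown replicates 1 and 3 and in control replicates 1 and 3, and at 55 Mb in replicate 2 of each group. It took up 78.5%, 77.7% and 74.7% of the variance between bins in the knockdown libraries and 68.4%, 80.0% and 63.8% in the control libraries. In 1 Mb bins it fell at 52 Mb in all 6 libraries. The longest stretch of chromosome 4 with no listed peak in any library ran from 49156606 to 51818832, a length of 2.66 Mb, so that the step coincided with this gap. In 5 Mb bins each group thus had 2 libraries at 50 Mb and 1 at 55 Mb. The bin from 50 to 55 Mb takes in part of this gap. With 10 Mb bins or with log2 density the step fell at 50 Mb in all 6 libraries. The same held with length counted only in 100 kb windows that hold a summit.

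With 3 change points allowed in 1 Mb bins, 4 libraries gave the same pattern. The steps lay at 9 and 52 Mb in the 3 knockdown libraries and in control replicate 1, and the last lay at 143, 140 and 142 Mb in the knockdown libraries and at 142 Mb in control replicate 1. Control replicate 2 gave 52, 93 and 139 Mb and control replicate 3 gave 52, 136 and 142 Mb, so the step at 9 Mb was not among their best 3. Chromosome 4 was then cut at the median positions into 4 stretches, from 0 to 9 Mb, 9 to 52 Mb, 52 to 142 Mb and 142 Mb to the end. Along these stretches the knockdown libraries averaged 28.8, 11.98, 53.6 and 38.3 weak regions per Mb, and the control libraries averaged 13.9, 6.23, 32.8 and 22.1. Strong regions averaged 20.6, 10.1, 17.5 and 16.6 per Mb in the knockdown libraries and 29.4, 15.2, 25.4 and 23.8 in the control libraries. The tip of the short arm thus had the highest density of strong regions and the third stretch the highest density of weak ones, in both groups.

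Strong regions followed another map. Below the split there were 11.7, 11.9 and 13.2 per Mb in the knockdown libraries and 17.9, 19.5 and 17.4 in the control libraries. Above it there were 16.4, 16.6 and 17.9 in the knockdown libraries and 24.1, 26.3 and 23.03 in the control libraries. Their best single step lay at 70 Mb in all 6 libraries and took up 20.1% to 23.9% of the variance in the knockdown libraries and 24.4% to 30.9% in the control libraries. The 4 bins from 70 to 90 Mb averaged 23.7, 30.9, 25.5 and 24.6 strong regions per Mb in the knockdown libraries and 36.5, 39.3, 35.6 and 34.3 in the control libraries. The bin from 30 to 35 Mb was the poorest, with 5.73 per Mb in the knockdown libraries and 9.60 in the control libraries. Annotated protein-coding genes were denser below the split, with 249 genes or 4.98 per Mb, than above it, with 521 genes or 3.72 per Mb.

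Among 23 chromosomes, chromosome 4 ranked 1 in weak regions per Mb, with a median of 32.8 over the 6 libraries, and 12 in strong regions per Mb, with a median of 19.1. A single step in 5 Mb bins took up a median of 76.2% of its variance in weak density, which ranked 7. Bins with few or no regions were kept on the other chromosomes, so a step there can border a nearly empty stretch. On chromosome 15 in knockdown replicate 1, for example, the level before the step at 20 Mb was 0.05 per Mb. Chromosome 10 ranked 1, with 91.0%, and chromosome 1, whose step lay at 145 Mb in 5 libraries, reached 75.7%. A step in weak density is therefore not particular to chromosome 4.

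Between the groups, weak regions were denser in the knockdown libraries and strong regions were denser in the control libraries, on both sides of the split and with no overlap of libraries. Weak density averaged 15.2 ± 1.75 per Mb in the knockdown libraries and 7.71 ± 2.51 in the control libraries below the split, and 47.7 ± 4.20 and 28.7 ± 8.14 above it (SD, n = 3 each). Strong density averaged 12.3 ± 0.81 in the knockdown libraries and 18.3 ± 1.10 in the control libraries below the split, and 17.0 ± 0.82 and 24.5 ± 1.68 above it. The same shift was seen over all chromosomes, with 19.2 ± 2.16 weak regions per Mb in the knockdown libraries and 10.1 ± 2.66 in the control libraries, and 16.0 ± 1.06 and 23.1 ± 1.32 strong ones. As a share of each library's own weak regions, those above the split made up 11.5% ± 0.41 in the knockdown libraries and 13.1% ± 0.46 in the control libraries, so the direction turned. Strong regions above the split made up 4.91% ± 0.10 of all strong regions in the knockdown libraries and 4.91% ± 0.08 in the control libraries.

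In every full bin the mean density of weak regions was higher in the knockdown libraries and that of strong regions lower. The knockdown mean was 1.39 to 2.55 times the control mean for weak regions over the 10 bins below and the 28 full bins above the split, and 0.507 to 0.785 times for strong regions. The highest weak ratio, 2.55, belonged to the bin from 5 to 10 Mb, with 29.4 per Mb in the knockdown libraries and 11.5 in the control libraries. In 3 libraries many regions share a single −log10 q close to the limit of 2. In knockdown replicate 2, 1434 regions had 2.09, in control replicate 1, 1086 had 2.07, and in control replicate 2, 1387 had 1.97. Only the last of these sets counts as weak, and in the other 3 libraries the commonest value between 1.9 and 2.1 was shared by 12 to 39 regions. The direction between the groups was the same with weak set at under 3 and at under 1.5. Just inside and outside the strong limit, 66, 62 and 65 regions of the knockdown libraries and 61, 49 and 51 of the control libraries had a −log10 q less than 0.5 under it. In the 0.5 above it lay 71, 90 and 103 regions of the knockdown libraries and 112, 142 and 96 of the control libraries.

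**Figure D2:**
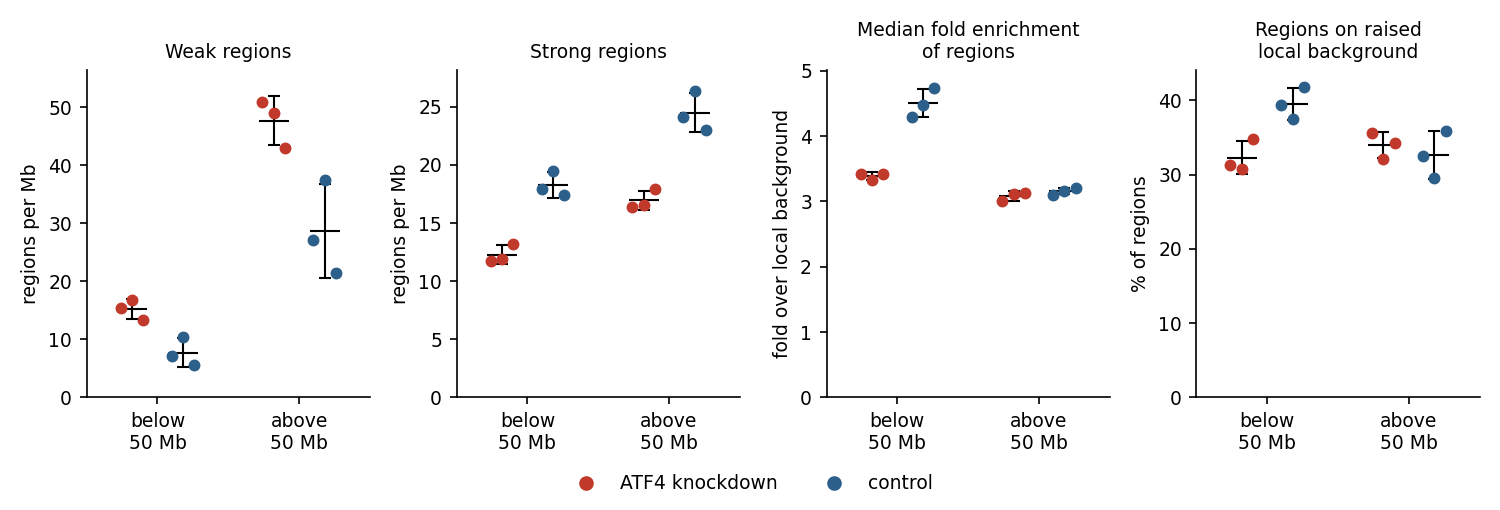
Values of the 6 libraries below and above 50 Mb, for weak regions per Mb, strong regions per Mb, the median fold enrichment and the share of regions on raised local background, with points for libraries and a bar with whiskers for the mean and SD of 3. Median fold is 4.50 in the control mean below the split and lies between 3.00 and 3.42 in the other 3 sets.

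Taken as a ratio, weak density below and above the split was closer in the knockdown libraries, and strong density was closer in the control libraries. In regions per Mb the order was the opposite. The mean difference between the sides was then larger in the knockdown libraries for weak regions and in the control libraries for strong ones. The ratio of weak density below to above averaged 0.318 ± 0.020 in the knockdown libraries and 0.267 ± 0.011 in the control libraries, with no overlap. For strong regions this ratio averaged 0.724 ± 0.013 in the knockdown libraries and 0.747 ± 0.008 in the control libraries. The median fold enrichment of merged regions was 3.42, 3.32 and 3.42 below the split in the knockdown libraries and 4.30, 4.48 and 4.73 in the control libraries. Above the split it was 3.00, 3.11 and 3.14 in the knockdown libraries and 3.10, 3.16 and 3.21 in the control libraries. The sides thus differed by 1.10 ± 0.04 times in the knockdown libraries and by 1.42 ± 0.04 times in the control libraries. Regions whose summit stood on raised local background, over 1.2 times the library-wide rate, made up 31.3%, 30.8% and 34.8% below the split in the knockdown libraries and 39.4%, 37.5% and 41.7% in the control libraries. Above the split they made up 35.6%, 32.1% and 34.2% in the knockdown libraries and 32.5%, 29.5% and 35.9% in the control libraries, where the groups overlap.

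Strong regions of the third stretch stood on raised local background more often than those of the second. In the knockdown libraries 88.7% ± 1.30 did so in the third stretch and 62.8% ± 1.26 in the second. In the control libraries 77.6% ± 1.69 and 55.3% ± 1.38 did. Weak regions of the third stretch had a local background above the library-wide rate in 59.2% ± 6.71 in the knockdown libraries and 32.6% ± 12.8 in the control libraries, and those of the second in 17.3% ± 4.65 and 16.4% ± 7.14. Away from gene ends the median pileup of strong regions in the third stretch was 19.6 ± 1.14 times the library-wide rate in the knockdown libraries and 19.6 ± 1.96 in the control libraries. These medians cover only regions that passed the strong limit in each library. Such regions numbered 1339 ± 82.9 in the knockdown libraries and 2021 ± 150 in the control libraries, so the medians do not compare all sites away from gene ends.

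Gene starts were marked by strong regions about equally on both sides. The strand was known for 657 of the 770 protein-coding genes of chromosome 4. A strong region lay within 1 kb of 63.7% ± 0.90 of 193 starts below the split in the knockdown libraries and of 66.7% ± 1.08 in the control libraries. Above the split it did so at 65.3% ± 0.22 of 464 starts in the knockdown libraries and at 67.5% ± 0.12 in the control libraries. Over both ends of all 770 genes the share below minus that above was -2.90 ± 0.74 percentage points in the knockdown libraries and -3.31 ± 0.46 in the control libraries, which overlapped.

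At 119 starts below the split and 300 above it, a strong region was present in all 6 libraries. The median pileup at the starts below was 54.6, 62.7 and 64.6 times the library-wide rate in the knockdown libraries and 77.2, 81.3 and 69.5 times in the control libraries. At those above it was 95.9, 106 and 107 times in the knockdown libraries and 136, 155 and 126 times in the control libraries. The fold over local background did not follow, with 12.5 ± 0.22 below and 12.6 ± 0.15 above in the knockdown libraries and 13.4 ± 0.47 and 13.8 ± 0.53 in the control libraries. The local background at these starts was higher above the split, with 4.50 ± 0.15 times the library-wide rate below and 7.16 ± 0.34 above in the knockdown libraries and 5.42 ± 0.22 below and 9.40 ± 0.78 above in the control libraries. In all 6 libraries both the pileup and the local background were higher above the split, while the fold was higher in 4 libraries and lower in knockdown replicates 2 and 3. The part of the peaks' own tags in this local background was not tested. By stretch, the median pileup was 52.1, 66.6, 108 and 91.4 times the rate in the knockdown libraries and 68.0, 88.8, 147 and 125 times in the control libraries.

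**Figure D3:**
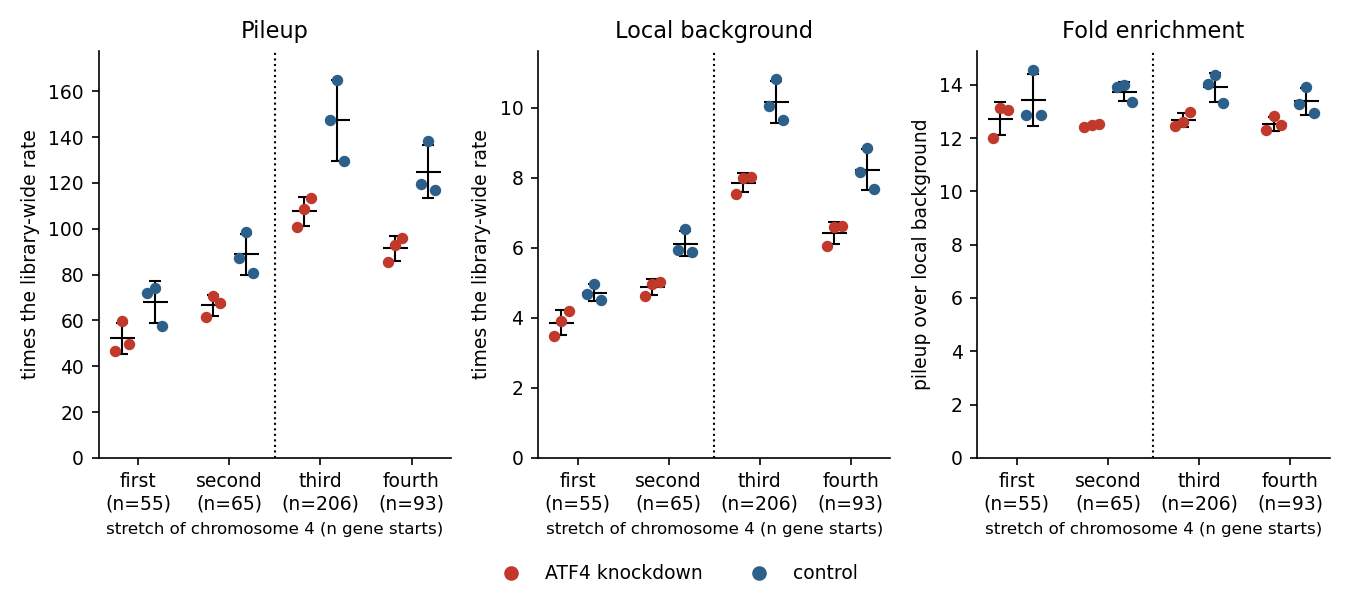
Gene starts with a strong region in all 6 libraries, by stretch of chromosome 4 (from the tip of the short arm, left, to the end of the long arm, right, with the dotted line at the 52 Mb step). Points give each library's median of pileup, local background (both as multiples of the library-wide rate) and fold enrichment, and bars with whiskers the mean and SD of 3. Pileup and local background are higher to the right of the line in both groups. The mean fold by stretch is between 12.5 and 12.7 in the knockdown libraries and between 13.4 and 13.9 in the control libraries. In the first stretch the libraries of the groups overlap in fold, with 13.1 in knockdown replicate 2 and 12.9 in control replicate 3.

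The promoter windows of these starts were richer in G+C below the split. The median G+C was 70.7% with 32 CpG pairs at the 119 starts below, 63.7% with 25 at the 300 above, and 66.0% with 27 at 9894 such starts over all chromosomes. A GC box stood in 72.3% of the windows below and 68.3% of those above, against 73.6% over all chromosomes. An NRF1 site stood in 20.2% and 8.0%, against 12.8%, and an ETS site in 21.0% and 13.7%, against 20.5%. A CCAAT box stood in 37.0% and 34.0%, against 37.3%, and a cAMP response element in 7.56% and 6.0%, against 3.5%. A C/EBP-ATF element stood in 0.840% of the 119 windows below and 0.667% of the 300 above, against 0.334%. On chromosome 4 these are very few windows, so no enrichment can be read from them. An AP-1 site stood in 2.52% and 4.67%, against 3.59%. These are counts of letters and not of bound factors. Among all 15812 promoter windows of the table the shares were 58.5% for the GC box, 36.3% for the CCAAT box, 8.59% for the NRF1 site, 14.2% for the ETS site, 2.59% for the cAMP response element, 0.626% for the C/EBP-ATF element and 5.75% for the AP-1 site.

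Genes were then taken from 5 lists chosen for the chromosome and the cell type. A strong region lay within 1 kb of an end in all 6 libraries at 6 of 6 neighbours of the translocation, 9 of 11 genes of the B lineage and of blood, 9 of 9 stress and secretory genes and 9 of 9 cell cycle and housekeeping genes. It did so at 4 of 12 genes of other tissues, namely KIT, PDGFRA, SPP1 and MSX1. Beside these stand 12333 of 19974 protein-coding genes over all chromosomes, and on chromosome 4, 135 of 249 below the split and 326 of 521 above it. RHOH had no listed peak at its ends in any library and BST1 a weak one in knockdown replicate 1 alone. No peak was listed at the ends of GABRA2, a receptor subunit of nerve cells, or of ALB and AFP, the albumin genes of the liver.

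At genes with a strong end region in all 6 libraries, the pileup of the strongest such region, as a multiple of the library-wide rate, was mostly lower in the knockdown libraries. The strongest region was taken in each library by itself, so it could differ between libraries. Over all chromosomes it was lower in every knockdown library than in every control library at 69.8% of 12333 genes, and higher at 0.924%. Below the split it was lower at 76 of 135 genes and higher at 2, and above it lower at 240 of 326 and higher at 0. The median log2 ratio of knockdown to control was -0.38 below, -0.43 above and -0.45 over all chromosomes. The shares lower were thus 56.3% below and 73.6% above, beside 69.8% over all chromosomes. The part of depth in them was not tested. Of the 37 listed genes with such a region, every knockdown library was lower at 24 and higher at 1.

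That 1 gene was NSD2. Its region, across the annotated start (chr4:1870153-1872044 in knockdown replicate 1), had a pileup of 65.8, 81.7 and 71.4 times the library-wide rate in the knockdown libraries and 51.8, 56.6 and 57.6 times in the control libraries. The groups did not overlap, and the mean was 72.9 ± 8.07 against 55.3 ± 3.12. Its fold over local background was 5.72, 6.13 and 5.27 in the knockdown libraries and 3.81, 3.76 and 3.97 in the control libraries. Its local background was 11.2, 12.9 and 13.2 times the rate in the knockdown libraries and 13.4, 14.8 and 14.3 times in the control libraries, so the order there was the opposite. The DNA covered by listed peaks within 10 kb of its ends was also lower in the mean, with 5113, 3850 and 4376 bases in the knockdown libraries and 5462, 4513 and 6037 in the control libraries (log2 difference -0.25 ± 0.12 SE, limma adjusted p = 0.414). The other gene below the split with this order was CTBP1, a transcriptional corepressor, chosen after its values were seen, with 48.6, 45.0 and 43.5 times in the knockdown libraries and 41.4, 41.9 and 43.4 times in the control libraries, so that the closest values of the groups were 43.5 and 43.4.

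At FGFR3, which lies on the plus strand, the ends differed. Its strongest end region had a pileup of 34.7, 47.3 and 46.3 times the rate in the knockdown libraries and 65.3, 74.8 and 60.5 times in the control libraries. In the control libraries this was the region past the end of the gene, at the higher coordinate (chr4:1809361-1811041 in control replicate 1), with a fold of 6.15, 6.34 and 5.78. That region had a pileup of 34.7, 47.3 and 33.9 times and a fold of 5.55, 6.42 and 4.84 in the knockdown libraries. At the annotated start (chr4:1792943-1793957 in knockdown replicate 1) the pileup was 34.7, 37.6 and 46.3 times in the knockdown libraries and 31.1, 34.7 and 32.1 times in the control libraries, higher in the knockdown mean as at the NSD2 start, though the groups overlap. Covered DNA near FGFR3 had a log2 difference of -0.08 ± 0.09 SE (limma adjusted p = 0.725). TACC3, a spindle protein gene beside FGFR3, averaged 75.7 ± 10.04 times in the knockdown libraries and 110 ± 13.4 in the control libraries.

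The B lineage genes were spread over both arms. CD38 had 32.8 ± 6.20 times the rate in the knockdown libraries and 51.1 ± 5.12 in the control libraries. JCHAIN, which links polymeric immunoglobulins, had 33.9, 33.9 and 32.3 times in the knockdown libraries and 43.3, 50.8 and 33.8 times in the control libraries, and the groups overlapped. The value of control replicate 2 belongs to another region, and the region measured in the other libraries had 40.8 times there. BANK1, a B cell scaffold gene, had 23.1 ± 3.88 times in the knockdown libraries and 40.4 ± 4.72 in the control libraries. KLF3, a transcriptional repressor gene, had 107 ± 3.03 and 97.0 ± 8.54 times, with overlap. NFKB1, which encodes the p50 subunit of NF-kB and its precursor, had 78.4 ± 2.59 times in the knockdown libraries and 127 ± 23.9 in the control libraries. These NFKB1 values mix its ends, since the strongest region lay at the start in knockdown replicates 1 and 3 alone. At the start the pileup was 80.9, 72.9 and 75.8 times in the knockdown libraries and 97.6, 97.4 and 83.7 times in the control libraries. At the other end it was 54.2, 78.4 and 63.0 times in the knockdown libraries and 119, 154 and 109 times in the control libraries.

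All 9 stress and secretory genes were lower in every knockdown library than in every control library, beside the 69.8% over all chromosomes. SLC7A11, the cystine and glutamate exchanger, had 106, 120 and 121 times the rate in the knockdown libraries and 173, 221 and 162 times in the control libraries. Its region covered the end with the higher coordinate (chr4:138241390-138242710 in knockdown replicate 1), and its fold was 14.4, 14.9 and 15.5 in the knockdown libraries and 14.5, 16.3 and 15.2 in the control libraries, which overlap. SEC31A, a coat protein of vesicles leaving the endoplasmic reticulum, had 203 ± 16.0 times in the knockdown libraries and 276 ± 33.4 in the control libraries. HSPA4L, a chaperone gene, had 126 ± 12.7 and 176 ± 21.5 times. The median log2 ratio of knockdown to control over these 9 genes was -0.47, against -0.45 over all chromosomes.

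**Figure D4:**
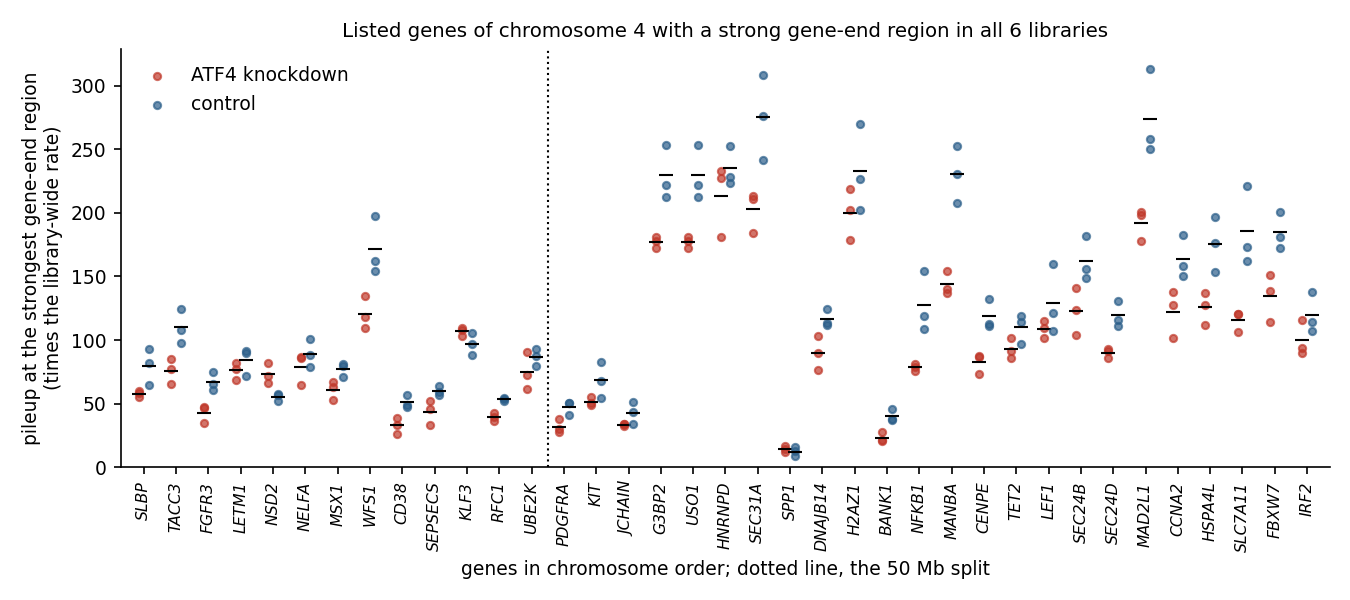
Pileup at the strongest region within 1 kb of a gene end in each library, as a multiple of the library-wide rate. Shown are the 37 listed genes with a strong end region in all 6 libraries, in chromosome order. A dotted line marks the 50 Mb split. Points are libraries and dashes are means of 3. Knockdown lies below control at most genes, NSD2 is the gene where all 3 knockdown points lie above the control points, and G3BP2 and USO1 share 1 region. In the knockdown mean, WFS1 is the highest gene below the split at 121 and HNRNPD the highest above at 214.

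Cell cycle and housekeeping genes lay mostly above the split. MAD2L1 averaged 192 ± 12.3 times the rate in the knockdown libraries and 274 ± 34.5 in the control libraries. CCNA2, which encodes cyclin A, averaged 122 ± 18.6 and 164 ± 17.0 times. H2AZ1, a histone variant gene, averaged 200 ± 20.1 and 233 ± 34.1 times, and HNRNPD, an RNA-binding protein gene, averaged 214 ± 28.5 and 235 ± 15.5 times. RFC1, a subunit of the clamp loader of replication, averaged 39.2 ± 3.03 and 53.4 ± 1.27 times and lay below the split. Chosen after their values were seen among genes whose groups did not overlap, the lowest ratios of knockdown to control were at SLC9B2 above the split (log2 ratio -1.29) and at TLR1 below it (log2 ratio -0.93). TLR1, an innate immune receptor gene, had 15.2, 15.8 and 19.1 times in the knockdown libraries and 41.4, 24.4 and 29.5 times in the control libraries. BTC, which encodes the growth factor betacellulin and was also chosen after its values were seen, had 84.5, 124 and 99.7 times in the knockdown libraries and 192, 217 and 170 times in the control libraries.

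Regions were next merged over the 6 libraries wherever a peak had a −log10 q of at least 2, which gave 216029 regions in all. Of these, 28.7% were found in all 6 libraries. On chromosome 4, 849 of 2930 regions below the split were found in all 6 (29.0%), and 3209 of 19711 above it (16.3%). By stretch the share was 28.9%, 28.7%, 15.4% and 18.4%. Regions found in all 3 control libraries and listed in no knockdown library made up 1.5% over all chromosomes, and the reverse 0.102%. Below the split 39 of 2930 were control-only and 5 knockdown-only, and above it 167 of 19711 were control-only and 27 knockdown-only. No test was made on these counts, which depend on depth through the limit for listing.

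The regions found in all 6 libraries with the highest lowest −log10 q below the split covered ends of MXD4, WDR19 and WFS1. The MXD4 region (chr4:2261403-2262912), whose promoter is shown above, had pileups of 406, 427 and 468 tags in the knockdown libraries and 750, 762 and 735 in the control libraries. Its fold was 14.9, 15.0 and 14.4 in the knockdown libraries and 15.9, 17.5 and 14.8 in the control libraries. Above the split they were ELMOD2, a region inside DCUN1D4 and a region between genes. The DCUN1D4 region (chr4:51842554-51843794), in a gene of the NEDD8 conjugation pathway and 8.67 kb from its nearest end, lay just past the gap without peaks. It had pileups of 608, 546 and 644 tags in the knockdown libraries and 920, 941 and 895 in the control libraries, and a fold of 17.7, 16.8 and 16.7 against 16.9, 17.3 and 16.3. The region between genes (chr4:82284471-82285639) lay 66.9 kb from the nearest gene end, that of HNRNPD, with folds of 20.4, 19.8 and 20.3 in the knockdown libraries and 22.1, 22.3 and 19.3 in the control libraries. Whether regions inside genes were exonic or intronic was not determined, since the gene table gives the gene's outer limits.

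The control-only regions with the highest lowest −log10 q below the split lay inside UCHL1 and SLC2A9 and 94.8 kb from PCDH7. The SLC2A9 region (chr4:9994061-9994927), in a gene for a urate transporter, had pileups of 27, 30 and 42 tags in the control libraries, folds of 6.65, 8.17 and 9.51, and a local background at the library-wide rate. The UCHL1 region (chr4:41258890-41259128), in a gene for a ubiquitin hydrolase of nerve cells and 1.96 kb from its end, had pileups of 112, 114 and 105 tags on a local background of 10.6, 11.0 and 9.68 times the rate. Above the split they lay inside GATB, TMEM154 and PGRMC2. The GATB region (chr4:151728011-151729166), in a gene of mitochondrial translation, had folds of 15.0, 14.8 and 11.1 in the control libraries on a local background of 1.03, 1.0 and 1.0 times the rate. The PGRMC2 region (chr4:128286548-128286885) had folds of 2.40, 2.70 and 2.42 on a local background of 19.6, 20.7 and 19.2 times. The 3 knockdown libraries list no peak at any of these regions.

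Of the knockdown-only regions, one 529 kb from PCDH10 (chr4:132619804-132620334) above the split had pileups of 18, 19 and 13 tags and folds of 5.01, 5.99 and 3.62 in the knockdown libraries. Below the split the region 453 kb from GABRG1 (chr4:45582163-45582455) had 14, 12 and 20 tags, and the one inside SLIT2, an axon guidance gene (chr4:20389600-20389846), had 12, 10 and 11 tags. The control libraries list no peak at any of them.

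DNA covered by listed peaks within 10 kb of the gene ends was compared between the groups with limma over 18606 genes, after scaling each library to the same total. At an unadjusted p under 0.05, 9.08% of all genes were lower in the knockdown libraries and 4.89% higher. Below the split 22 of 212 genes were lower (10.4%) and 9 higher (4.25%). Above it 27 of 520 were lower (5.19%) and 46 higher (8.85%). No gene of chromosome 4 passed the adjusted threshold of 0.05, nor did any other gene (0.0% lower and 0.0% higher). The median log2 difference was -0.04 below, 0.05 above and -0.02 over all genes. Without the scaling to equal totals the median over all genes moved to -0.14. Then 57 of 212 genes below were lower and 3 higher, against 79 and 23 of 520 above (unadjusted), so the balance above 50 Mb turned. Over all genes 23.75% were then lower and 2.49% higher.

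The genes of smallest p on each side did not pass. MRFAP1, which encodes a protein of the MORF4 group, had 1293, 1596 and 1757 covered bases in the knockdown libraries and 3036, 2624 and 2953 in the control libraries (log2 difference -0.82 ± 0.12 SE, limma adjusted p = 0.102). PCGF3, a polycomb gene, had 1304, 1100 and 1434 covered bases in the knockdown libraries and 2008, 2278 and 2215 in the control libraries (log2 difference -0.68 ± 0.12 SE, limma adjusted p = 0.108). Above the split SEPTIN11, a cytoskeletal gene, had 3772, 3408 and 3602 covered bases in the knockdown libraries and 2517, 2480 and 2367 in the control libraries (log2 difference 0.51 ± 0.08 SE, limma adjusted p = 0.102). ABCE1, a ribosome recycling factor, had a log2 difference of -0.47 ± 0.08 SE and COQ2, an enzyme of coenzyme Q synthesis, one of -0.47 ± 0.09 SE (limma adjusted p = 0.108 each). At ALB, whose ends carry no peak, weak regions nearby gave 960, 710 and 1038 covered bases in the knockdown libraries and 201, 284 and 215 in the control libraries (log2 difference 1.34 ± 0.26 SE, limma adjusted p = 0.108). LOC124900164 and LOC124900647, both below 2 Mb, had log2 differences of -0.80 ± 0.13 SE and -0.56 ± 0.12 SE (limma adjusted p = 0.102 and 0.123). These values rest on the 10 kb windows. With 2 kb windows MRFAP1 had -0.13, PCGF3 -0.08 and LOC124900164 -0.11, and SEPTIN11 had 0.29, ABCE1 -0.27 and COQ2 -0.24. With 50 kb windows MRFAP1 had -0.25, SEPTIN11 0.13, COQ2 -0.09 and ALB 0.73 (limma adjusted p = 0.0265 for ALB). In each of these genes but ALB and SEPTIN11, with 10 kb windows, every knockdown library was lower than every control library, and in those 2 every knockdown library was higher.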

How the data were processed

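ATAC-seq peak lists of 3 ATF4 knockdown and 3 control libraries of KMS-11 were used, 1 list per library. The submitters' processing notes name MACS2 as the peak caller and hg38 as the build. Its version and settings, the aligner and the read filters were not given in the sources used here. In the deposited lists, column 7 is a fold, the ratio of summit pileup to local background with 1 added to each. The added 1 lowers the fold most where the background is low, and its part in the differences of fold was not tested. Columns 8 and 9 are the −log10 p and −log10 q that the caller gave in each library, and the deposited score in column 5 was left unused. The lists start at a −log10 p of 2.0. They give no counts, so whole-number pileups and local backgrounds were solved for from columns 7 and 8 under a Poisson model, to within 0.01 of the deposited −log10 p, for 100.0% of summits.

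Overlapping peaks were merged within a library, keeping the strongest summit's values. Densities below 50 Mb use 50.0 Mb and densities above it use the length to the last listed base. The measures named by the choice of the split were compared between the groups by their values, with no test. Covered bases near gene ends were compared as log2(value + 200 bp) with limma 3.58.1 (R 4.3.3; trend and robust settings, Benjamini-Hochberg adjustment) for genes covered in at least 3 libraries, after a check on simulated data, and differences on that scale understate changes of genes with little covered DNA. Other steps used numpy 2.4.6, pandas 2.3.3 and scipy 1.17.1. Gene limits and promoter sequences are from RefSeq (GRCh38.p14, the assembly of hg38).

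Nothing says that replicates came from separate infections, so p-values measure the spread between these libraries. The split, the gene lists and the tests were chosen with earlier results of these data known. Named regions are taken from the 3 per side and class with the highest lowest −log10 q, and named genes are the list members and, per side, those of smallest p in limma with NSD2 and FGFR3; any others are marked as such in the text. The knockdown-only region above the split with the highest value is not reported here. Alternatives varied the limits for weak and strong, the merging, the split, the bins, the windows, the scaling, the pseudocount and the libraries left out.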

Additional observations from a re-analysis of the deposited data

How the results depend on the processing

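Of the 9 measures set between the groups, 8 kept their direction under the thresholds, bins and windows tried. The groups did not overlap in these 8, so leaving out 1 library could not turn them. The measures were chosen on these same libraries, so this is a description. Densities taken as a share of the library's own regions were added after seeing the data. The weak difference above 50 Mb then turned to -1.57 percentage points. The difference in the share of gene ends with a strong region, 0.417 percentage points of knockdown minus control, turned to -0.248 with 5 kb windows and to -0.709 with gene starts alone (added after seeing the data), and ran from -0.0033 (without knockdown replicate 3) to 0.704 with 1 library left out. The step moved to 70.0 Mb for strong regions and stayed within 50 to 55 Mb otherwise.

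With presence from a −log10 q of 10, control-only regions numbered 3 of 1064 below and 22 of 4030 above the split, beside 0.399% over all chromosomes. With any listed peak they numbered 65 of 5141 and 297 of 37754, beside 1.28%. Knockdown-only regions numbered 0 and 0 at the first limit, beside 0.0013% over all chromosomes, and 13 and 195 with any listed peak, beside 0.353%. The 13 and 195 made up 0.253% below and 0.517% above the split. Leaving out 1 library gave 56 to 93 control-only regions below and 250 to 327 above, and 5 to 18 and 43 to 163 knockdown-only ones, since fewer libraries must then lack or hold a peak. As shares, control-only regions were 2.08% to 3.27% below and 1.39% to 1.76% above, beside 2.24% to 2.85% over all chromosomes. Knockdown-only ones were 0.176% to 0.679% and 0.232% to 0.928%, beside 0.160% to 0.571%. In limma, genes passing the adjusted threshold numbered 10 lower and 1 higher of 212 below and 13 lower and 3 higher of 520 above without scaling to equal totals. Over all chromosomes 649 were then lower and 44 higher of 18606 genes. With 50 kb windows 6 were lower and 4 higher of 232 below, and 39 higher of 521 above, beside 383 lower and 428 higher of 19686 over all chromosomes. The median log2 difference turned to 0.0025 below with 2 kb windows and to -0.0678 above without scaling, and LOC124900647 turned to 0.044 and FGFR3 to 0.08 with 2 kb windows; the cause was not tested.

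Same-numbered libraries of the groups did not deviate together (r = 0.016, 0.001 and 0.025), so the numbers were not taken to pair them. With the replicate block limma called 0 genes adjusted, with 26 lower and 10 higher below and 28 and 52 above unadjusted. Over all genes 9.56% were then lower and 5.07% higher, also unadjusted. The lists give no read totals, and the part of depth in the differences was not tested.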
